A study of Mus musculus with 12 samples.

Results

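The 10 genes described here encode the receptor complex that recognises lipopolysaccharide (LPS), its adaptors, and inhibitors or modulators that the pathway switches on: Tlr4, Ly96, Cd14, Tlr2, Myd88, Ticam1, Irak3, Nfkbia, Nfkbiz and Tnfaip3. They were taken by symbol from the 17920 genes listed for each lung library, and all 10 were found and passed the filter on low values. Lungs of male BALB/c mice, 6 to 8 weeks old, were profiled by RNA sequencing of polyadenylated RNA. Of 24 mice randomised to 4 groups of 6, the lungs of 3 mice in each group were sequenced at the end of a 14 day model, as the labels' protocols state. Mice of the LPS+bLF group (LPSBLF in the sample titles, LBS+BLF in the treatment field) received both agents, at doses not stated separately. Mice of the LPS group received 50 µL of LPS at 1 µg/µL, and mice of the bLF group (BLF in the labels) received bovine lactoferrin, an iron-binding milk protein that binds LPS, at 200 mg/kg per day. The control group (NC in the treatment field) received neither agent. The labels give neither the route of LPS nor the interval between LPS and tissue collection, and whole lung was used, so cell types were not separated.

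LPS from Gram-negative bacteria is handed by Cd14 to Ly96, which holds its lipid part against Tlr4. The assembled receptor signals at the cell surface through Myd88 and from endosomes through Ticam1. Both routes activate the transcription factor NF-kB, which then induces genes that end the signal, among them Nfkbia and Tnfaip3. It also induces Nfkbiz, which is needed for a subset of its targets. In the lung this pathway is best known in alveolar and interstitial macrophages, neutrophils, endothelium and epithelium, and repeated exposure to LPS is known to leave macrophages tolerant, a state in which Irak3 takes part.

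Depth was even, with 16714327 to 17820645 counts per library, while the libraries differed in tissue makeup. Sftpc, the surfactant protein of alveolar type II cells, was at 43000 to 166276 FPKM (a fragment count divided by transcript length and by library total) and Ager, a membrane receptor of alveolar type I cells, at 3701 to 7795 FPKM, so defining lung markers were present in all 12 libraries. LPS replicate 1 stood apart: its mean of neutrophil markers lay 2.14 above the control mean on the log2 scale, and its mean of T, B and NK cell markers lay at −2.31, with Cd3e and Ms4a1 listed at 0, and 3067 genes were at 0 in it, against 1499 to 1963 in the other libraries. In control replicate 2 the club cell gene Scgb1a1 took 23.8% of all counts, against 1.68 to 7.43% in the others. Brown fat, skeletal muscle or cardiac muscle genes were high in control replicate 1, bLF replicate 1 and LPS+bLF replicates 2 and 3. Many, though not all, of the results that rest on these libraries are given with and without them.

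Cd14, Tlr2, Nfkbia and Tnfaip3 had the 4 largest fitted LPS means relative to control, at 1.61 to 2.0 times the control level. Of these, Cd14 and Tnfaip3 were also lower in every LPS+bLF lung than in every LPS lung. The Nfkbia value, the largest, rested on single lungs, and its log2 fold change was 0.205 without LPS replicate 1. Tlr4, Ly96, Myd88 and Ticam1, which form the core receptor and its adaptors, differed by at most 1.36 times between LPS and control lungs. No difference passed Benjamini-Hochberg adjustment over the 13735 genes tested with edgeR's quasi-likelihood test, so the values below describe these 12 lungs and the p-values are given unadjusted and adjusted. Fold changes are of counts scaled by TMM factors, which correct for library makeup, while levels are in FPKM. In whole tissue, fewer cells of a type and less RNA per cell cannot be told apart.

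**Figure D1:**
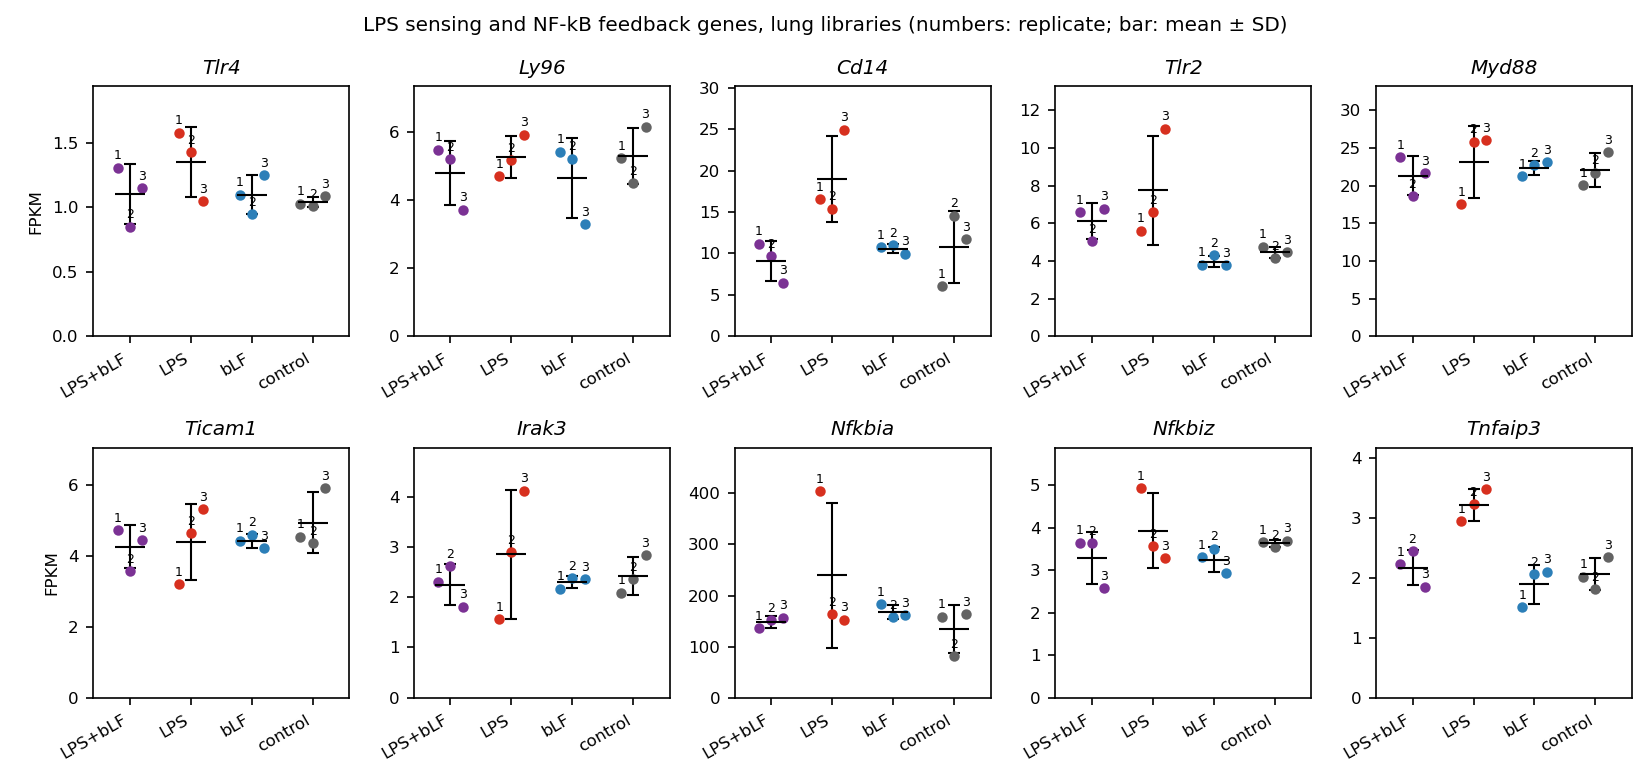
FPKM (vertical axes, starting at 0) of each of the 10 genes in the 12 lung libraries, by group, with replicate numbers beside the points and bars for the mean ± SD of 3 libraries. Tnfaip3 in the LPS lungs lies between 2.94 and 3.47 FPKM, above all other libraries, and Nfkbia in LPS replicate 1 stands alone at 403.63 FPKM.

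The upstream sequences of Tlr2, Nfkbia and Tnfaip3 are shown because these are the 3 genes of the set with a match to an NF-kB motif in the RefSeq promoter table (GRCm38.p6). All 3 are among the 4 genes with an unadjusted edgeR p under 0.05 between LPS and control lungs. Cd14, the other of the 4, had no start site there and was not searched. The Nfkbia log2 fold change was 0.205 without LPS replicate 1. Whether a match goes with a difference after LPS was not tested. The table held 8 start sites for 6 of the 10 genes: Tlr2, Myd88, Ticam1, Irak3 with 2, Nfkbia, and Tnfaip3 with 2. The 250 bases before each start site were searched on both strands for GGG, any 2 bases, TT, any 1 base and CC, which reads GG, any base, AA, any 2 bases and CCC on the other strand, and 1350 of all 32851 promoters in the table, or 4.11%, held a match. For Nfkbia and Tnfaip3 the last 130 bases before the start site are given, and for Tlr2, where other transcripts begin further upstream, only the match with 10 bases on each side. Capitals mark the match, each sequence runs 5′ to 3′ toward the start site, and all 3 genes lie on the minus strand.
Tlr2 (chr3:83841761-83841790): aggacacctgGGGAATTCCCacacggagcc
Nfkbia (chr12:55492648-55492777): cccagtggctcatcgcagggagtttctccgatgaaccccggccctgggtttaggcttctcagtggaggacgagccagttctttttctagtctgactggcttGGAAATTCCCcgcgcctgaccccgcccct
Tnfaip3 (chr10:19015411-19015540): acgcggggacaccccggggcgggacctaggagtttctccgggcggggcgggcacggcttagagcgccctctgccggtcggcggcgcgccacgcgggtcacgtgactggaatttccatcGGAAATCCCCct
With the last base before the start site counted as −1, the Tlr2 match spans −172 to −163 and is a palindrome, so the same bases are read as a match on both strands. It lies just outside the GENCODE span of Tlr2, which ends at 83841767 on GRCm38, and inside the RefSeq span, while the Tnfaip3 start site lies inside the GENCODE span of its gene, which ends at 19015657. The Nfkbia match spans −29 to −20 and the Tnfaip3 match spans −12 to −3, both on the strand opposite to the gene. The windows of Myd88, Ticam1, both Irak3 start sites and the other Tnfaip3 start site held no match to these letters. A match is a description of the sequence and was not tested for binding.

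Among the receptors, Tlr4, the signalling receptor for LPS (gene ID 21898, chromosome 4, 66827551 to 66846581, GRCm38), had the lowest level of the 10 genes. It was at 1.31, 0.85 and 1.15 FPKM in LPS+bLF lungs, 1.58, 1.43 and 1.05 in LPS lungs, 1.10, 0.95 and 1.25 in bLF lungs, and 1.03, 1.01 and 1.09 in control lungs. LPS replicates 1 and 2 were above every control lung and replicate 3 lay within the control range. The fitted log2 fold change between LPS and control was 0.44 ± 0.24 (SE), and 0.185 without LPS replicate 1 (edgeR adjusted p = 0.684 with all libraries). The LPS+bLF value relative to LPS was −0.32 ± 0.24, with overlapping groups, and −0.06 without LPS replicate 1.

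Ly96, the lipid-binding partner of Tlr4 (gene ID 17087, chromosome 1, 16688456 to 16709605), was at 5.49, 5.21 and 3.73 FPKM in LPS+bLF lungs, 4.71, 5.18 and 5.93 in LPS lungs, 5.43, 5.23 and 3.29 in bLF lungs, and 5.25, 4.51 and 6.17 in control lungs. All 4 groups overlapped. Its counts were the smallest of the set, 21 to 39 per library, so its values are the least precise: the log2 fold change was 0.02 ± 0.31 (SE) between LPS and control and −0.12 ± 0.31 between LPS+bLF and LPS, which leaves room for differences in either direction.

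Cd14, the surface protein that delivers LPS to the receptor and is abundant on macrophages and monocytes (gene ID 12475, chromosome 18, 36725064 to 36726815), showed the largest difference of the 10 genes between LPS+bLF and LPS lungs. It was at 11.18, 9.64 and 6.49 FPKM in LPS+bLF lungs, 16.58, 15.42 and 24.95 in LPS lungs, 10.72, 11.02 and 9.99 in bLF lungs, and 6.07, 14.55 and 11.76 in control lungs. Every LPS lung was above every lung of the other 3 groups on the FPKM scale, by a narrow margin over control replicate 2. On the TMM scale that margin was lost, with 20.1 CPM (counts scaled to library size) in LPS replicate 2 and 22.4 CPM in control replicate 2. Cd14 averaged 9.10 ± 2.39 FPKM in LPS+bLF lungs and 19.0 ± 5.2 FPKM in LPS lungs (SD, n = 3 each), a log2 fold change of −1.08 ± 0.34 (SE). The edgeR p for this difference was 0.00913 unadjusted and 0.689 adjusted. The LPS mean was 0.84 ± 0.34 (log2, SE) above the control mean of 10.8 ± 4.32 FPKM (SD, n = 3). Its edgeR p was 0.0302 unadjusted and 0.665 adjusted. Control replicate 2 weighed most on the second value, which was 1.22 without that library and 0.55 without control replicate 1. Without LPS replicate 1 the values were −1.06 between LPS+bLF and LPS and 0.83 between LPS and control.

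Tlr2, the receptor for bacterial lipoproteins, which is not an LPS receptor but signals through Myd88 (gene ID 24088, chromosome 3, 83836272 to 83841824), was higher in both groups that received LPS. It was at 6.60, 5.04 and 6.77 FPKM in LPS+bLF lungs, 5.61, 6.60 and 11.02 in LPS lungs, 3.81, 4.32 and 3.77 in bLF lungs, and 4.75, 4.13 and 4.47 in control lungs. The 6 lungs with LPS were all above the 6 lungs without it, and the LPS+bLF and LPS groups overlapped. Tlr2 averaged 7.74 ± 2.88 FPKM in LPS lungs and 4.45 ± 0.310 FPKM in control lungs (SD, n = 3 each), with a log2 fold change of 0.84 ± 0.22 (SE). This was the smallest p of the 10 genes in any comparison, 0.00254 unadjusted and 0.346 adjusted with edgeR. DESeq2, run on the same counts, gave 0.86 ± 0.24 with an adjusted p of 0.0343, the only adjusted p under 0.05 for these genes in any setting tried. LPS replicate 3 held the highest value, and without it the fold was 0.54, while without LPS replicate 1 it was 0.945 with an adjusted p of 0.182. LPS+bLF lungs were above bLF lungs by 0.655 ± 0.22 (log2, SE, edgeR unadjusted p = 0.0116, adjusted p = 1.0) and above control lungs by 0.51 ± 0.22 (unadjusted p = 0.0379, adjusted p = 0.832).

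The adaptors were the steadiest genes of the set. Myd88, the adaptor that recruits the Irak kinases (gene ID 17874, chromosome 9, 119335934 to 119340018), was at 23.78, 18.60 and 21.61 FPKM in LPS+bLF lungs, 17.54, 25.83 and 25.99 in LPS lungs, 21.22, 22.67 and 23.07 in bLF lungs, and 20.04, 21.70 and 24.43 in control lungs. The whole range over 12 libraries was 1.48 times, the narrowest of the 10 genes, and its biological coefficient of variation was 0.166. Its log2 fold change was −0.11 ± 0.15 (SE) between LPS+bLF and LPS and 0.10 ± 0.15 between LPS and control. LPS replicate 1 had the lowest FPKM value, but on the TMM scale it was at 35.3 CPM, inside the control range of 31.3 to 39.9 CPM. Myd88 overlaps Acaa1a on the opposite strand, and since strandedness is not given in the sources used here, reads of the overlap cannot be assigned with certainty.

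Ticam1, the adaptor of the endosomal route to interferon genes (gene ID 106759, chromosome 17, 56269462 to 56276767), was at 4.73, 3.57 and 4.45 FPKM in LPS+bLF lungs, 3.21, 4.64 and 5.31 in LPS lungs, 4.43, 4.60 and 4.22 in bLF lungs, and 4.54, 4.35 and 5.91 in control lungs. It was the only gene of the 10 with a lower fitted mean in LPS than in control lungs (−0.13 ± 0.18, log2, SE), beside Ly96 at −0.01 with upper-quartile scaling, and the groups overlapped. Relative to LPS the LPS+bLF value was −0.04 ± 0.18. The ratio of Myd88 to Ticam1 in FPKM stayed between 4.13 and 5.57 over the 12 libraries, with 4.86 to 5.21 in LPS+bLF lungs, 4.89 to 5.57 in LPS lungs, 4.79 to 5.47 in bLF lungs and 4.13 to 4.99 in control lungs.

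The remaining 4 genes act as brakes or modulators. Irak3, a kinase-dead relative of the Irak kinases that holds back Myd88 signalling and is made mainly by macrophages and monocytes (gene ID 73914, chromosome 10, 120141648 to 120202130), varied more within the LPS group than within any other group. It was at 2.31, 2.62 and 1.81 FPKM in LPS+bLF lungs, 1.56, 2.89 and 4.12 in LPS lungs, 2.17, 2.38 and 2.36 in bLF lungs, and 2.09, 2.36 and 2.83 in control lungs. In FPKM the LPS group held both the lowest and the highest of the 12 values, so its mean says little about a single lung. On the TMM scale LPS+bLF replicate 3 was lowest at 4.18 CPM, just below LPS replicate 1 at 4.21 CPM. The log2 fold change between LPS and control was 0.21 ± 0.30 (SE), with 0.435 without LPS replicate 1 and −0.15 without LPS replicate 3. Between LPS+bLF and LPS it was −0.32 ± 0.30, with −0.54 and 0.01 without the same libraries. Irak3 overlaps Tmbim4 and an antisense gene, Gm47009, on the opposite strand, with the same limit on reads as for Myd88.

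Nfkbia, which encodes the inhibitor that holds NF-kB in the cytoplasm and is itself one of its quickest targets (gene ID 18035, chromosome 12, 55489409 to 55492647), was the most abundant gene of the set, at the 95.6th percentile of level among the genes tested. It was at 135.84, 152.17 and 156.98 FPKM in LPS+bLF lungs, 403.63, 163.30 and 152.76 in LPS lungs, 183.54, 157.82 and 161.91 in bLF lungs, and 158.88, 81.36 and 163.34 in control lungs. LPS replicate 1 stood far above every other lung, control replicate 2 was the lowest, and the other 10 lungs lay between 135.84 and 183.54 FPKM. The log2 fold change between LPS and control was 1.00 ± 0.41 (SE), the largest of the 10 genes, with an edgeR p of 0.0329 unadjusted and 0.665 adjusted. It was 0.205 without LPS replicate 1 and 0.004 without that library and control replicate 2 together, so the difference rests on these 2 lungs. For LPS+bLF relative to LPS it was −0.79 ± 0.41 with all libraries and 0.01 without LPS replicate 1. That lung also had the highest neutrophil marker mean, and the part of those cells in its Nfkbia level was not tested.

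Nfkbiz, an inducible nuclear relative of the IkB proteins needed for a subset of NF-kB targets such as Il6 (gene ID 80859, chromosome 16, 55811375 to 55838954), was at 3.65, 3.63 and 2.58 FPKM in LPS+bLF lungs, 4.93, 3.57 and 3.28 in LPS lungs, 3.31, 3.51 and 2.93 in bLF lungs, and 3.66, 3.55 and 3.70 in control lungs. In FPKM LPS replicate 1 was again the highest of the 12 while LPS replicate 2 lay within the control range and LPS replicate 3 below it. On the TMM scale LPS replicates 2 and 3, at 10.7 and 10.6 CPM, both lay below the control range of 11 to 13 CPM. The log2 fold change between LPS and control was 0.18 ± 0.24 (SE), and −0.16 without LPS replicate 1. The LPS+bLF mean lay −0.285 ± 0.24 from the LPS mean, and 0.055 without LPS replicate 1.

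Tnfaip3, the ubiquitin-editing enzyme that ends NF-kB signalling downstream of Tlr and TNF receptors (gene ID 21929, chromosome 10, 19000910 to 19015410), was the gene of the set with the most even LPS group. It was at 2.22, 2.44 and 1.85 FPKM in LPS+bLF lungs, 2.94, 3.22 and 3.47 in LPS lungs, 1.51, 2.06 and 2.1 in bLF lungs, and 2.02, 1.81 and 2.34 in control lungs. Every LPS lung was above all 9 other lungs on both the FPKM and the TMM scale, and the other 3 groups overlapped. Tnfaip3 averaged 2.17 ± 0.298 FPKM in LPS+bLF lungs and 3.21 ± 0.265 FPKM in LPS lungs (SD, n = 3 each), with a log2 fold change of −0.56 ± 0.20 (SE). Its edgeR p was 0.0159 unadjusted and 0.689 adjusted. Against the control mean of 2.06 ± 0.267 FPKM the LPS value was 0.69 ± 0.20 (log2, SE), with an edgeR p of 0.00521 unadjusted and 0.435 adjusted. Leaving out each library in turn moved this value between 0.65 and 0.77, and the value between LPS+bLF and LPS between −0.685 and −0.46.

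The 10 genes spanned a wide range of levels. By mean FPKM over the 12 libraries the order was Nfkbia (173), Myd88 (22.2), Cd14 (12.4), Tlr2 (5.57), Ly96 (5.01), Ticam1 (4.50), Nfkbiz (3.52), Irak3 (2.46), Tnfaip3 (2.33) and Tlr4 (1.15). Nfkbia did not overlap with Myd88 in any library, and the ranges over libraries of all other neighbours in this order overlapped. Variation over libraries followed another order: the highest library was 4.96 times the lowest for Nfkbia, 4.11 times for Cd14, 2.92 times for Tlr2, 2.64 times for Irak3 and 2.30 times for Tnfaip3, and under 2 times for the other 5 genes.

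**Figure D2:**
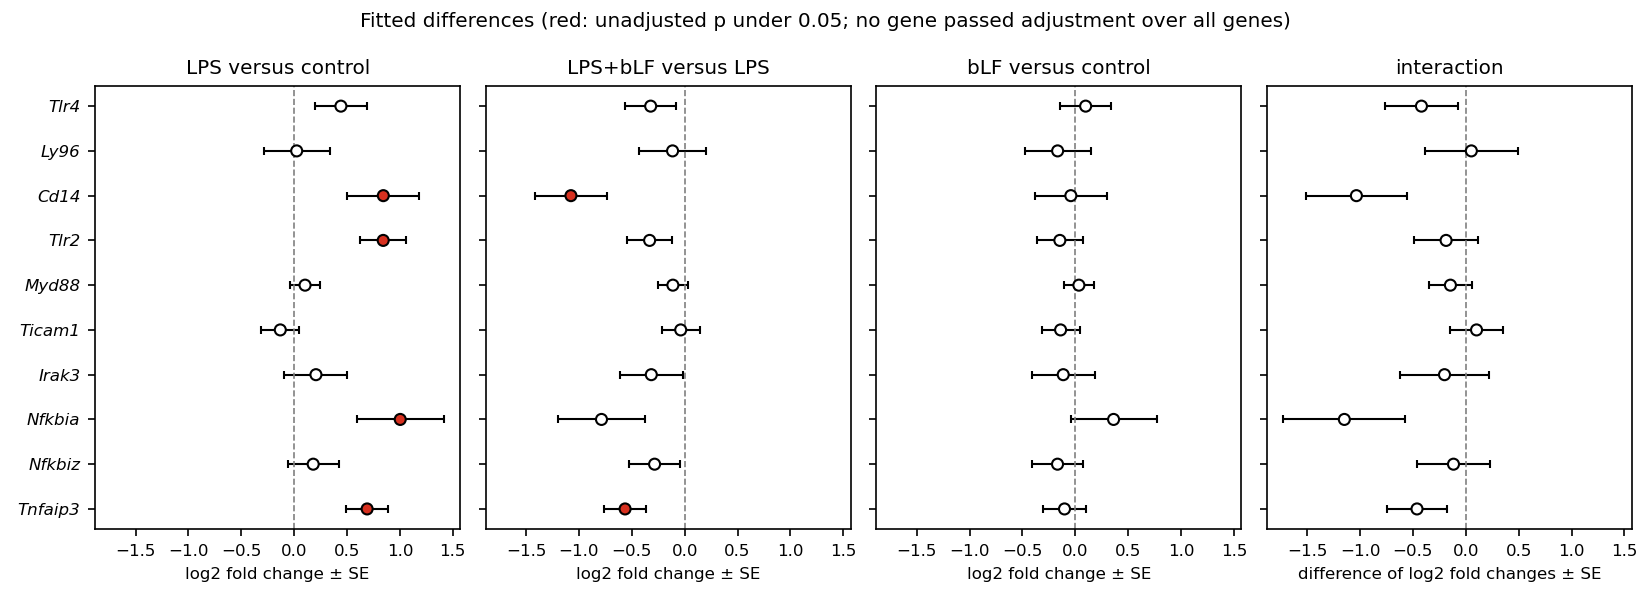
Fitted log2 fold changes (horizontal axes, points with SE bars) of the 10 genes for LPS versus control, LPS+bLF versus LPS and bLF versus control, and for the interaction, which is the bLF difference with LPS minus the bLF difference without it. Red points have an unadjusted p under 0.05: Cd14, Tlr2, Nfkbia and Tnfaip3 at 0.69 to 1.00 in the first panel, and Cd14 (−1.08) and Tnfaip3 (−0.56) in the second.

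LPS versus control asks how the lung differed after LPS alone. Of the 10 genes, 0 passed adjustment over all genes with edgeR, where 0.0% of all genes passed, and 4 had an unadjusted p under 0.05 with a higher LPS mean, against 5.52% of all genes. With DESeq2 1 of the 10, Tlr2, passed, against 1.0% of all genes, and with limma on log2(FPKM + 1) 0 of the 10 passed. Every LPS lung was above every control lung in FPKM for Cd14, Tlr2 and Tnfaip3, against 4.0% of all genes. A higher fitted LPS mean was found for 9 of the 10 genes (8 with upper-quartile scaling, where Ly96 was at −0.01), against 45.8% of all genes, with a median log2 fold change of 0.32 beside −0.04 over all genes. Without LPS replicate 1, 8 of the 10 were higher, against 42.1% of all genes, and the median was 0.195. In that fit 2 genes, Tlr2 and Tnfaip3, kept an unadjusted edgeR p under 0.05 with a higher LPS mean, against 526 of all 13735 genes.

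LPS+bLF versus LPS asks how lungs differed when lactoferrin was given with LPS, and shares the LPS lungs with the comparison above, so the values of the 2 are not independent. Of the 10 genes 0 passed adjustment with edgeR (0.0% of all genes), and 0 with DESeq2 (0.051% of all genes). Cd14 and Tnfaip3 had an unadjusted p under 0.05 with a lower LPS+bLF mean, against 3.65% of all genes. The same 2 genes were lower in FPKM in every LPS+bLF lung than in every LPS lung, against 4.91% of all genes. A higher fitted LPS+bLF mean was found for 0 of the 10 genes, against 47.9% of all genes, and the median log2 fold change was −0.32 beside −0.02 over all genes. Without LPS replicate 1, 2 of the 10 (Nfkbia and Nfkbiz) had a higher LPS+bLF mean, against 50.7% of all genes, and the median was −0.16.

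bLF versus control asks what lactoferrin did without LPS, and here the genes lay closest together. Of the 10 genes 0 had an adjusted p under 0.05 with edgeR (0.0% of all genes) or DESeq2 (0.00728% of all genes), and 0 had an unadjusted p under 0.05, against 1.38% of all genes. The largest value was that of Nfkbia (0.36 ± 0.41, log2, SE), where the low control replicate 2 pulls down the control mean. Without control replicate 2 the Nfkbia value was 0.147. Nfkbiz was lower in FPKM in every bLF lung than in every control lung, against 5.74% of all genes, with 3.25 ± 0.295 FPKM in bLF lungs and 3.64 ± 0.0777 FPKM in control lungs (SD, n = 3 each). On the TMM scale its groups overlapped and the log2 fold change was −0.17 ± 0.24 (SE). Nfkbia was the reverse case: it overlapped in FPKM, but on the TMM scale every bLF lung (239, 209 and 221 CPM) was above every control lung (196, 118 and 207 CPM), against 4.34% of all genes. The standard errors of 0.15 to 0.41 leave room for differences of that size in all 10 genes.

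In mice given lactoferrin, LPS+bLF versus bLF compares lungs with and without LPS. Only Tlr2 of the 10 genes had an unadjusted p under 0.05, against 2.66% of all genes, and it was higher in every LPS+bLF lung than in every bLF lung, against 5.13% of all genes. Nfkbia was lower in FPKM in every LPS+bLF lung than in every bLF lung, against 6.87% of all genes, by a margin of less than 1 FPKM between the nearest lungs, and overlapped on the TMM scale (−0.15 ± 0.41, log2, SE). LPS+bLF versus control gave 1 gene with an unadjusted p under 0.05 and a higher LPS+bLF mean, again Tlr2, against 2.63% of all genes, and higher FPKM in every LPS+bLF lung for the same gene, against 3.91% of all genes. With edgeR and with DESeq2 0 of the 10 genes passed adjustment in either comparison, where edgeR called 0.0% of all genes in both and DESeq2 0.0146% and 0.0874%.

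The interaction tests whether the bLF difference depended on LPS. Cd14 had −1.035 ± 0.48 (log2, SE, unadjusted p = 0.0536), Nfkbia −1.15 ± 0.58 (unadjusted p = 0.072) and Tnfaip3 −0.46 ± 0.28 (unadjusted p = 0.128), each with an edgeR adjusted p of 1.0. Without LPS replicate 1 these values were −1.02, −0.35 and −0.41. The other 7 genes lay between −0.42 and 0.10, and 0 of the 10 had an unadjusted p under 0.05, against 2.8% of all genes, so a lactoferrin difference particular to LPS lungs was not shown for any of them.

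**Figure D3:**
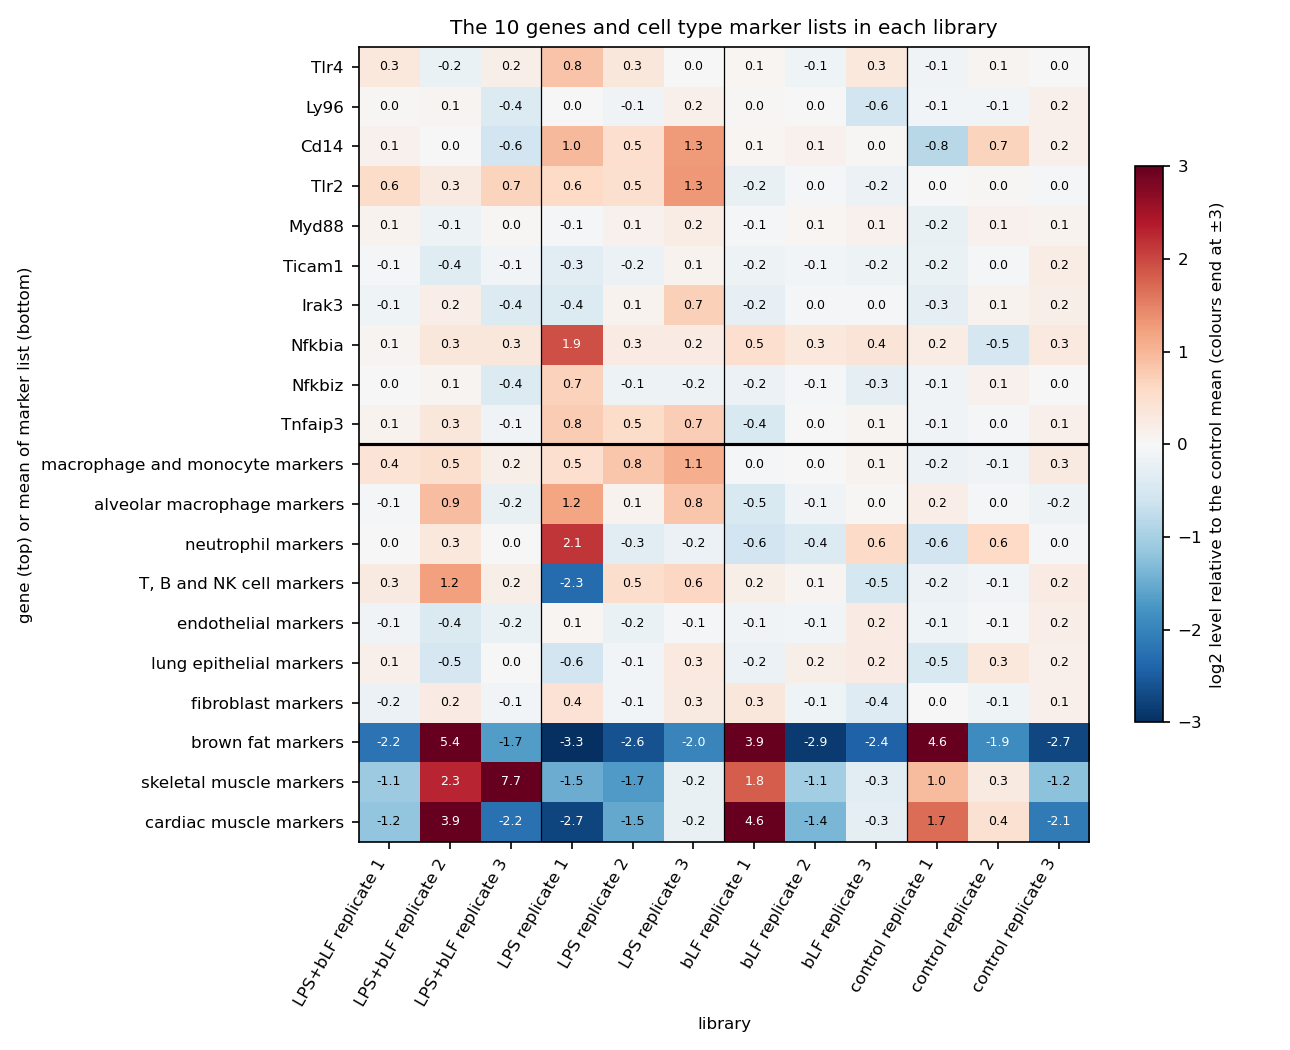
Log2 level relative to the control mean (colour and printed value; colours end at ±3) of the 10 genes, upper part, and of the means of 10 cell type marker lists, lower part, in each library. Cd14, Tlr2 and Tnfaip3 lie at 0.47 or more in all 3 LPS libraries, as does the macrophage and monocyte list, while LPS replicate 1 alone has 2.14 for neutrophils and −2.31 for T, B and NK cells. Such levels are not limited to LPS libraries: Cd14 is at 0.66 in control replicate 2, above 0.51 in LPS replicate 2. Tlr2 is at 0.56 and 0.66 in LPS+bLF replicates 1 and 3.

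Markers of macrophages and monocytes, cells that express Cd14, Tlr2 and Irak3, had higher LPS means, as Cd14 and Tlr2 did. The fitted LPS mean exceeded the control mean for 14 of 14 markers, against 45.8% of all genes, with a median log2 fold change of 0.86. In FPKM 6 of the 14 were higher in every LPS lung than in every control lung, against 4.0% of all genes. Adgre1, C1qa, C1qb, C1qc and Mrc1 were among the 6. In LPS replicate 1 Lyz2, Csf1r and Mpeg1, at 222.84, 12.75 and 7.89 FPKM, were below every control lung on the FPKM scale. Their values on the TMM scale are not given here. The list mean relative to control was 0.41, 0.48 and 0.17 in LPS+bLF lungs, 0.50, 0.83 and 1.095 in LPS lungs, −0.05, 0.02 and 0.11 in bLF lungs, and −0.17, −0.10 and 0.27 in control lungs. The summed FPKM of the list, most of it from the lysozyme Lyz2, was 945 to 1790 in LPS+bLF lungs, 536 to 3760 in LPS lungs, 891 to 1770 in bLF lungs and 917 to 2590 in control lungs, and none of the 14 was listed at 0 in any library. The LPS+bLF mean was below the LPS mean for 14 of 14 markers, while 47.9% of all genes had a higher LPS+bLF mean. The median was −0.48 beside −0.016 over all genes. Both comparisons use the same LPS lungs, so their marker counts are not independent. Irak3 did not follow the list in every lung: relative to the control mean it was at −0.40 in LPS replicate 1 and −0.41 in LPS+bLF replicate 3, where the list was at 0.50 and 0.17. The part of macrophage number in the Cd14, Tlr2 and Tnfaip3 values was not tested.

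Neutrophil markers did not follow the groups in the same way. Of 10 markers 7 had a higher mean in LPS than in control lungs with all libraries and 0 without LPS replicate 1. Over all genes these shares were 45.8% and 42.1%. The summed FPKM was 326 to 388 in LPS+bLF lungs, 273 to 1580 in LPS lungs, 219 to 518 in bLF lungs and 192 to 625 in control lungs. None of these markers was listed at 0. Of the other lists, a higher LPS than control mean was found for 6 of 8 alveolar macrophage, 6 of 11 T, B and NK cell, 4 of 8 endothelial, 5 of 8 lung epithelial and 4 of 6 fibroblast markers, and for 0 of 3 brown fat, 0 of 4 skeletal muscle and 0 of 5 cardiac muscle markers. Leaving out the 4 libraries with fat or muscle genes gave 0.55 for Cd14, 0.86 for Tlr2, 1.12 for Nfkbia and 0.65 for Tnfaip3 between LPS and control. The same omission gave, for LPS+bLF relative to LPS, −0.84 for Cd14, −0.28 for Tlr2, −0.98 for Nfkbia and −0.59 for Tnfaip3, with 1 LPS+bLF lung left.

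**Figure D4:**
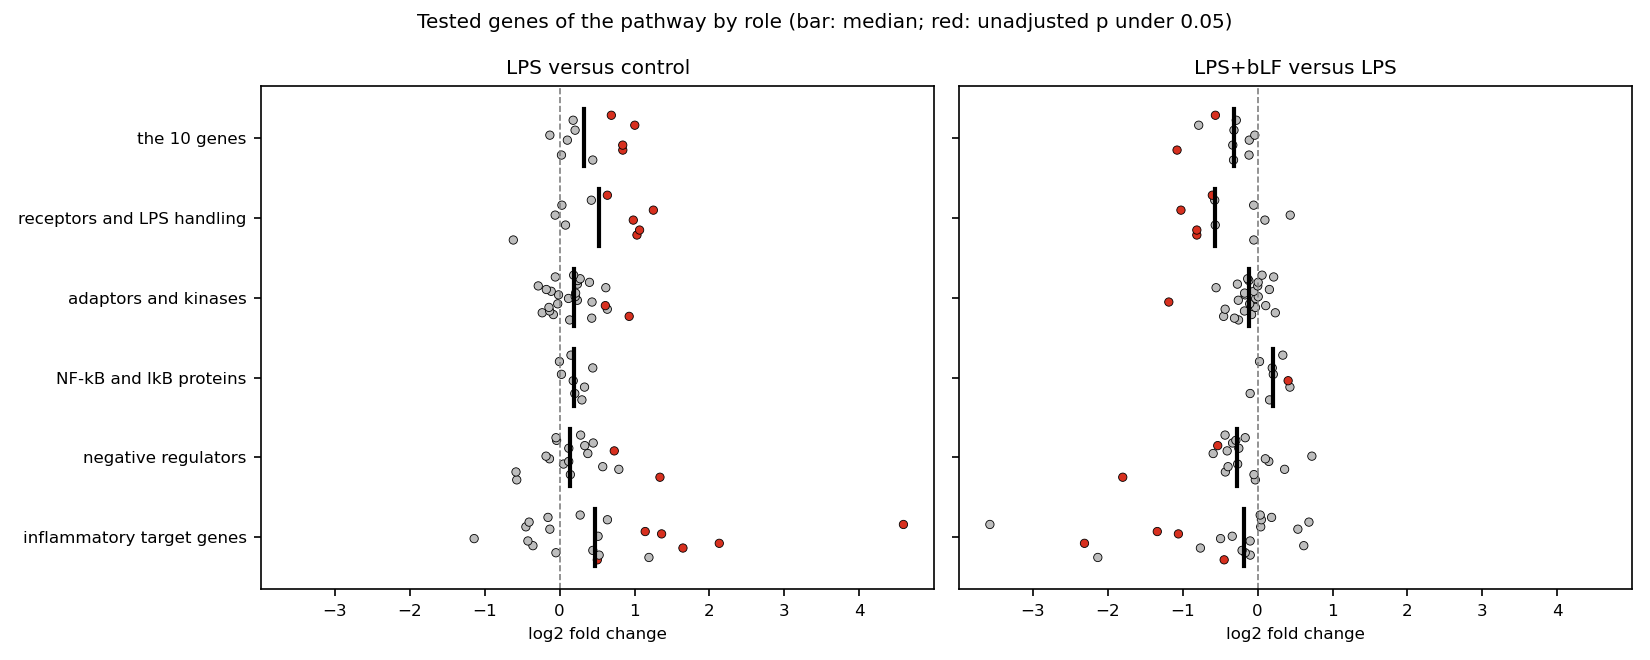
Log2 fold change (horizontal axis) of the 10 genes and of the genes of 5 lists of the same pathway that passed the filter on low values without the LPS lungs, for LPS versus control and LPS+bLF versus LPS. Bars mark the medians, 0.53 and −0.57 for receptors and LPS handling, and red points have an unadjusted p under 0.05.

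Other genes of the pathway were read from 5 lists that do not contain the 10 genes. Tlr8, Aoah, Ticam2, Rel and Cxcl3 reached the filter of 0.5 FPKM in 3 libraries only with the LPS lungs, so a higher LPS value was built into their selection, and they are left out of the counts and medians of the lists. Beside the list counts, 45.8% of all genes had a higher LPS than control mean, or 42.1% without LPS replicate 1. A higher LPS+bLF than LPS mean was found for 47.9%, or 50.7% without that library. An unadjusted edgeR p under 0.05 was found for 5.52% of all genes as higher in LPS than control. It was found for 3.65% as lower in LPS+bLF than LPS. With all 12 libraries 0 genes of any list passed adjustment with edgeR in any comparison. In the fit without LPS replicate 1 the chemokine Ccl5 passed in LPS versus control (2.19 ± 0.31, log2, SE, edgeR adjusted p = 0.0319, against 0.684 with all libraries). Ccl5 was at 14.62, 321.37 and 306.58 FPKM in LPS lungs, against 56.76, 64.98 and 79.74 FPKM in control lungs. Nkg7, a marker of cytotoxic lymphocytes, which make Ccl5, had 3.74, 62.62 and 59.03 FPKM in LPS lungs and 18.28, 13.12 and 17.85 FPKM in control lungs, and the part of those cells in the Ccl5 level was not tested.

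Among receptors and LPS handling proteins, 8 of 10 genes had a higher mean in LPS than in control lungs, 5 of them with an unadjusted p under 0.05 and 0 in the other direction, and the median log2 fold change was 0.53. In LPS+bLF relative to LPS lungs 8 of the 10 were lower, 4 with an unadjusted p under 0.05, with a median of −0.57, while without LPS replicate 1 all 10 were lower, 2 with such a p, with a median of −0.36. Aoah, the lipase that detoxifies LPS by removing its acyl chains, was at 0.37, 0.53 and 0.39 FPKM in LPS+bLF lungs, 1.08, 0.99 and 0.97 in LPS lungs, 0.54, 0.23 and 0.34 in bLF lungs, and 0.18, 0.19 and 0.32 in control lungs. Every LPS lung had more than any other lung, which is in part how the gene came to be tested, so no test is given. Cd36, a scavenger receptor, had the smallest p on the lower side between LPS and control, with 54.3 ± 23.0 FPKM in LPS lungs and 83.3 ± 14.2 FPKM in control lungs (SD, n = 3 each; −0.62 ± 0.28, log2, SE, and −0.385 without LPS replicate 1). Tlr1, which pairs with Tlr2, led the higher side between LPS+bLF and LPS with 1.90 ± 1.27 FPKM in LPS+bLF lungs and 1.46 ± 1.06 FPKM in LPS lungs (0.435 ± 0.63, and −0.02 without LPS replicate 1).

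Adaptors and kinases had medians nearer to 0. Between LPS and control 16 of 26 were higher, 2 of these and 0 of the lower genes with an unadjusted p under 0.05, and the median was 0.20, or 0.05 without LPS replicate 1. Irf5, a transcription factor downstream of Myd88, was at 14.4 ± 5.65 FPKM in LPS lungs and 9.63 ± 1.90 FPKM in control lungs (SD, n = 3 each; log2 fold change 0.61, and 0.85 without LPS replicate 1), and Irak1 was at 10.5 ± 2.24 FPKM in LPS lungs and 12.7 ± 0.693 FPKM in control lungs (−0.23). Lower LPS+bLF than LPS means were found for 18 of 26, 1 with an unadjusted p under 0.05, with a median of −0.11. With LPS replicate 1 left out this was 15 of 26, with 0 at such a p and a median of −0.025. The 1 gene was the kinase Map3k8, at 0.640 ± 0.380 FPKM in LPS+bLF lungs and 1.41 ± 0.358 FPKM in LPS lungs, while the ubiquitin-conjugating enzyme Ube2n led the higher side with 55.2 ± 1.33 FPKM in LPS+bLF lungs and 46.4 ± 6.58 FPKM in LPS lungs.

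NF-kB and IkB proteins were the only one of the 5 lists with a median above 0 between LPS+bLF and LPS, which was 0.20 with 7 of 8 higher, and 0.02 with 4 of 8 higher without LPS replicate 1. Between LPS and control 7 of 8 were higher, with a median of 0.19 and 0 at an unadjusted p under 0.05, and without LPS replicate 1 the median was 0.30 with 3 at such a p. Bcl3, a nuclear relative of the IkB proteins, had the smallest p on the higher side (0.30 ± 0.20, log2, SE, and 0.505 without LPS replicate 1), and Rela was at −0.003 ± 0.14. Nfkbib, a relative of Nfkbia that also retains NF-kB in the cytoplasm, was at 78.9 ± 3.38 FPKM in LPS+bLF lungs and 59.2 ± 7.23 FPKM in LPS lungs (SD, n = 3 each), a log2 fold change of 0.41 ± 0.15 (SE) that was 0.42 without LPS replicate 1. Its edgeR p was 0.0205 unadjusted and 0.689 adjusted. It was also the only gene of the list with an unadjusted p under 0.05 between bLF and control (0.34 ± 0.15), at 67.9 ± 6.21 FPKM in bLF lungs and 54.9 ± 13.8 FPKM in control lungs. Control replicate 2 was low at 39.08 FPKM, against 64.36 and 61.23 FPKM in control replicates 1 and 3, and no value without it is given here. Rel, the NF-kB subunit abundant in lymphocytes and myeloid cells, was at 0.427 ± 0.125 FPKM in LPS+bLF lungs and 0.577 ± 0.0635 FPKM in LPS lungs. It reached the filter only with the LPS lungs, so a lower LPS+bLF value was in part built into its selection and no test is given.

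Among negative regulators other than the genes described above, 12 of 18 were higher in LPS than in control lungs, 2 with an unadjusted p under 0.05, and the median was 0.13. Cd300lf, an inhibitory receptor of myeloid cells, was at 10.6 ± 4.43 FPKM in LPS lungs and 4.46 ± 1.42 FPKM in control lungs (1.34 ± 0.47, log2, SE, and 0.79 without LPS replicate 1), and Atf3, a transcriptional repressor, was at 4.67 ± 0.918 FPKM in LPS lungs and 7.08 ± 2.56 FPKM in control lungs (−0.57 ± 0.28). Relative to LPS lungs, LPS+bLF lungs had lower means for 14 of 18, with a median of −0.28. Cd300lf was at 3.31 ± 2.04 FPKM in LPS+bLF lungs (−1.80 ± 0.48, edgeR unadjusted p = 0.00312, adjusted p = 0.689), with −1.25 without LPS replicate 1. Socs1, a cytokine signalling inhibitor, went the other way with 15.8 ± 1.69 FPKM in LPS+bLF lungs and 9.89 ± 6.87 FPKM in LPS lungs (0.72 ± 0.45, and 0.29 without LPS replicate 1).

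Of the inflammatory target genes 21 of 27 were tested, and Il6, Il10, Il12b, Cxcl2, Cxcl5 and Sele did not reach 0.5 FPKM in 3 libraries. Leaving aside Cxcl3, 12 of 20 were higher in LPS than in control lungs, 6 with an unadjusted p under 0.05, with a median of 0.47, and without LPS replicate 1 this was 14 of 20, 4 with such a p. Il1rn, the natural antagonist of the interleukin 1 receptor, was at 4.10 ± 1.92 FPKM in LPS lungs and 1.74 ± 0.252 FPKM in control lungs (1.36 ± 0.39, log2, SE), and 0.735 without LPS replicate 1. Il1a led the lower side with 0.747 ± 0.750 FPKM in LPS lungs and 1.60 ± 0.848 FPKM in control lungs (−1.14 ± 0.93, and −0.58 without LPS replicate 1, in which it was listed at 0). In LPS+bLF lungs 13 of 20 were lower than in LPS lungs, 4 with an unadjusted p under 0.05, with a median of −0.19. Without LPS replicate 1 this was 15 of 20, 1 with such a p, with a median of −0.39. Lcn2, a protein that captures bacterial iron carriers, was at 163 ± 76.2 FPKM in LPS+bLF lungs and 386 ± 118 FPKM in LPS lungs (−1.34 ± 0.44, and −0.92 without LPS replicate 1). Sod2, the mitochondrial superoxide dismutase, led the higher side with 55.1 ± 32.4 FPKM in LPS+bLF lungs and 34.2 ± 2.15 FPKM in LPS lungs (0.685 ± 0.41). That LPS+bLF mean rested on replicate 2 at 92.4 FPKM, against 33.57 and 39.32 FPKM in replicates 1 and 3. Replicate 2 and control replicate 1, where Sod2 was at 76.69 FPKM, are both libraries with high brown fat genes.

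Between bLF and control the list medians lay between −0.13 and 0.16. The leading genes beside Nfkbib were Ube2v1 (0.265 ± 0.155, log2, SE), Inpp5d (0.36 ± 0.28) and the chemokine Ccl20 (1.60 ± 1.0) on the higher side. The Ccl20 value rested on bLF replicate 1 at 5.91 FPKM, against 0.82 and 0.91 FPKM in bLF replicates 2 and 3. On the lower side the leading genes were Cd36 (−0.485 ± 0.28), Irak1 (−0.195 ± 0.13), Rel (−0.26 ± 0.34), Dusp1 (−0.56 ± 0.32) and Ptgs2 (−0.63 ± 0.52), and Aoah, set apart above, was at 0.70 ± 0.445.

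**Figure D5:**
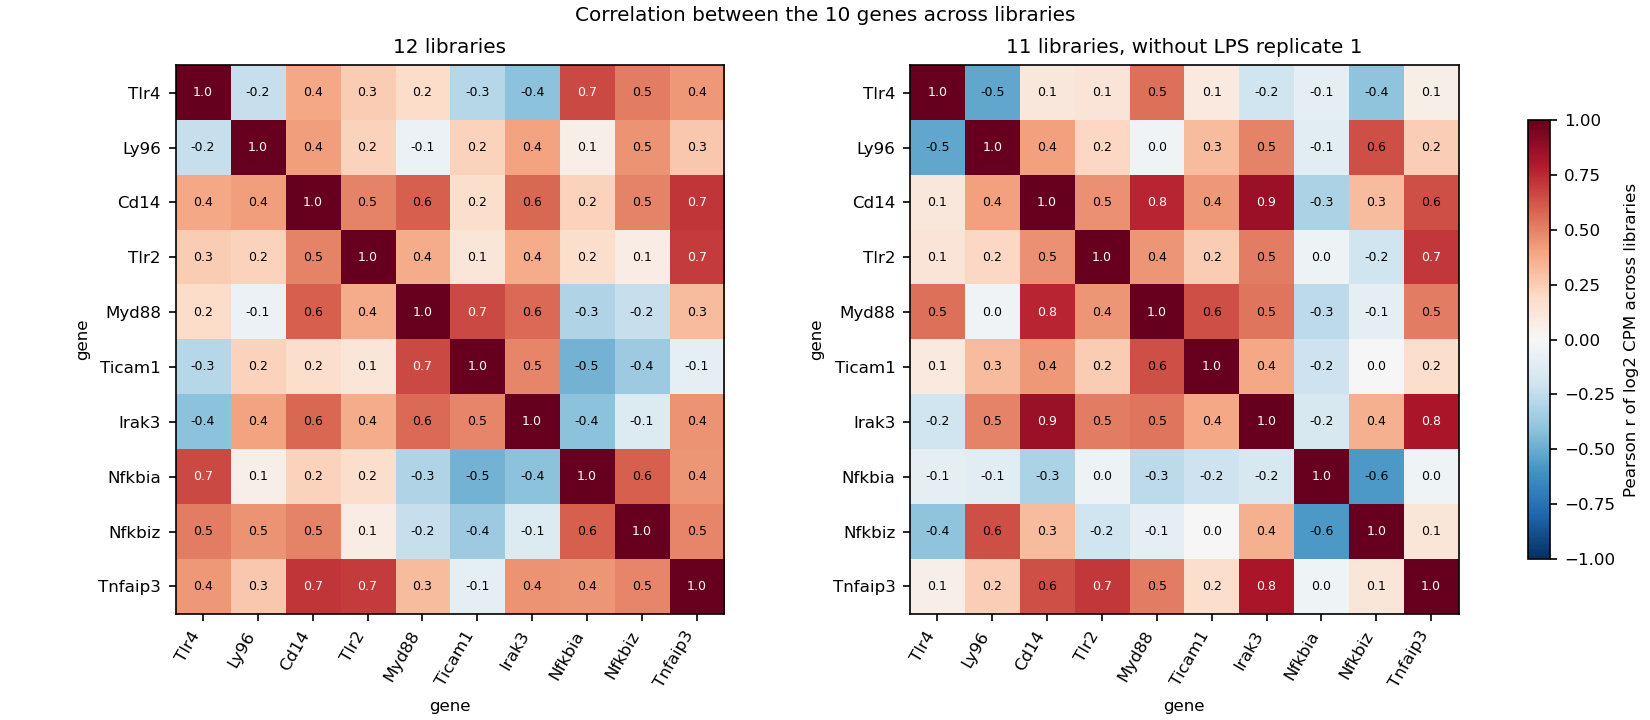
Pearson r (colour and printed value) between each pair of the 10 genes across 12 libraries, left, and across 11 libraries without LPS replicate 1, right, from log2 CPM. Nfkbia and Nfkbiz have 0.6 with that library and −0.6 without it, while Tnfaip3 with Tlr2 stays at 0.7.

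The 10 genes did not vary as a block across libraries. Over 45 pairs the median Pearson r of log2 CPM was 0.32 (−0.475 to 0.71, 34 pairs above 0) with 12 libraries, and 0.21 (−0.58 to 0.86, 30 pairs above 0) without LPS replicate 1. The points share groups and library makeup, so these values are descriptions. Cd14 with Irak3 (0.86), Irak3 with Tnfaip3 (0.82) and Cd14 with Myd88 (0.76) were the closest pairs without LPS replicate 1, and Nfkbia with Nfkbiz (−0.58) the most opposed, where all 12 libraries gave 0.60.

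Of 12261 genes with a mean of at least 1 FPKM, the genes whose pattern over the 12 libraries was most like each of the 10 were sought by Pearson r of log2 CPM. Cd14 was closest to Birc3, an inhibitor of apoptosis (r = 0.92, and 0.94 without LPS replicate 1), and Sox17, an endothelial transcription factor (0.92, and 0.90). Tlr2 was closest to the vasodilator peptide Adm (0.91, and 0.91) and Bcl2a1d (0.90, and 0.93). Irak3 was closest to Csf1r, the receptor that maintains macrophages (0.92, and 0.90), and Lgals3bp (0.91, and 0.90), and Tnfaip3 to the leukocyte surface protein Cd84 (0.93, and 0.925) and Cyb561a3 (0.91, and 0.90). Myd88 was closest to Dpp9 and Plac8 (0.93 each, and 0.93 each), Ticam1 to Abcb1a and Art4 (0.89 each, and 0.87 and 0.86), and Ly96 to Whamm and Ppig (0.915 and 0.89, and 0.92 and 0.89). Nfkbia was closest to Igsf8 and Dip2b (0.97 each, and 0.87 and 0.88), Nfkbiz to Zfp944 and Saal1 (0.945 and 0.94, and 0.855 and 0.81), and Tlr4 to Arl6ip6 and Fbxw9 (0.90 each, and 0.74 and 0.73). The likeness of these last 3 genes to their neighbours was weaker without LPS replicate 1, the library in which all 3 were highest.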

How the data were processed

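RNA was extracted from lungs with Trizol and polyadenylated RNA was enriched, per the labels' protocols. HISAT2 2.1.0, RSEM 1.2.8 and mm10 are named in the submitters' processing notes, with no role or order. Per the file headers, the authors deposited a count and an FPKM value per gene. Since 4.12 to 5.91% of the deposited count values were not whole, they were handled like the expected counts that RSEM writes, and rounded. The deposited FPKM values were used as given for levels. Strandedness, annotation and filters are not given in the sources used here, and coordinates come from RefSeq GRCm38 unless GENCODE is named.

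A gene was tested if 3 or more of the 12 libraries had 0.5 FPKM or more, which left 13735. One edgeR 4.0.16 quasi-likelihood fit (R 4.3.3, TMM factors of 0.854 to 1.092) of 4 group means used all 12 libraries, with 8 residual degrees of freedom and a common biological coefficient of variation of 0.352. Tests were two-sided, with Benjamini-Hochberg adjustment over all genes tested and a threshold of 0.05. SEs were derived from the quasi-likelihood F statistic. No 2 libraries were identical (0 pairs). Log2 CPM values used a prior count of 2. Motifs were searched in the RefSeq promoter table.

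The 10 genes and all lists were chosen with earlier results of these data known. All 10 are named. From each pathway list and comparison the higher and the lower gene of smallest unadjusted p were named, and for each of the 10 genes the 2 most similar genes. Marker genes are named as markers, and 1 marker is not reported here by name.

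Alternatives were DESeq2 1.42.0, upper-quartile scaling, limma 3.58.1 on log2(FPKM + 1), a filter at a mean of 5 FPKM, no filter, only the groups compared, a replicate block, and leaving out each library. Chosen after seeing the data were leaving the 5 genes that passed the filter only with the LPS lungs out of list counts, leaving out the 4 libraries with fat or muscle genes, and leaving out LPS replicate 1 and control replicate 2 together. The code was tested on simulated counts.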

Additional observations from a re-analysis of the deposited data

How the results depend on the processing

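For the 10 genes in 3 comparisons (bLF versus control, LPS versus control, and LPS+bLF versus LPS) and the interaction, 40 fold changes were recomputed under the alternatives, giving 810 values. Of these 766 kept their direction and side of the threshold, 1 passed it (Tlr2 with DESeq2, 0.86, LPS versus control) and 43 changed sign, in 18 of the 40. The other 22, among them Cd14, Tlr2 and Tnfaip3 in LPS versus control and in LPS+bLF versus LPS, changed sign under none. The cause of the changes was not tested.

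Genes called with DESeq2 numbered 138 in LPS versus control, of which 1 was among the 10 genes, and 7 in LPS+bLF versus LPS, 1 in bLF versus control, 2 in LPS+bLF versus bLF, 12 in LPS+bLF versus control and 1 in the interaction, with 0 of the 10 genes, where edgeR called 0 in each. For LPS versus control limma called 2, leaving out LPS replicate 1 and control replicate 2 together called 1, and leaving out single libraries called 0 to 25, with 25 without LPS replicate 1. For LPS+bLF versus LPS leaving out single libraries called 0 to 2.

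Changed signs were as follows. In LPS versus control Ly96 was at −0.01 with upper-quartile scaling, −0.005 with limma, −0.008 with a mean of at least 5 FPKM, −0.001 without the fat and muscle libraries and −0.002 without LPS replicate 1 and control replicate 2. Without that pair Nfkbiz was at −0.077, and at 0.037 in LPS+bLF versus LPS, 0.137 in the interaction, with Cd14 at 0.331 in bLF versus control. Without the fat and muscle libraries LPS+bLF versus LPS gave 0.011 for Ly96 and 0.063 for Ticam1, bLF versus control −0.008 for Myd88 and 0.003 for Tnfaip3, and the interaction 0.004 for Nfkbiz. In bLF versus control Cd14 was at 0.047 with limma and Myd88 at −0.019 with a mean of at least 5 FPKM. Leaving out single libraries gave, in LPS versus control, −0.049 to 0.115 for Ly96, −0.146 to 0.435 for Irak3 and −0.157 to 0.336 for Nfkbiz. In LPS+bLF versus LPS it gave −0.205 to 0.033 for Ly96, −0.131 to 0.069 for Ticam1, −0.542 to 0.011 for Irak3, −1.111 to 0.014 for Nfkbia and −0.467 to 0.055 for Nfkbiz. In bLF versus control it gave −0.024 to 0.181 for Tlr4, −0.279 to 0.019 for Ly96, −0.346 to 0.329 for Cd14, −0.06 to 0.094 for Myd88 and −0.204 to 0.048 for Tnfaip3. In the interaction it gave −0.129 to 0.2 for Ly96, −0.341 to 0.103 for Tlr2, −0.019 to 0.223 for Ticam1, −0.426 to 0.141 for Irak3 and −0.282 to 0.225 for Nfkbiz.

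With the replicate block 0 genes were called in every comparison, and 765 had an unadjusted p under 0.05 in LPS versus control, against 980 without it. The deviations of same-numbered libraries had r of −0.69 to 0.57, and in no comparison were all 3 pairs above 0.1, the limit used here for pairing. In LPS versus control (0.06 to 0.35) and bLF versus control (0.01 to 0.57) all 3 were above 0. With a mean of at least 5 FPKM 5 of the 10 genes were tested, and a fit of only the groups compared gives no interaction. Where 1 library remained in a group, it was assumed to vary like the others. With 3 lungs per group and a coefficient of variation of 0.352, small differences were not detectable, and for Ly96 a count of 21 to 39 adds counting error.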

Other observations

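In LPS+bLF versus control 8 of 8 genes of the NF-kB and IkB list had a higher LPS+bLF mean, against 50.3% of all genes. Rel, left out as above, had a lower mean. The median log2 fold change was 0.47 beside 0.003 over all genes. Of the list, 4 genes had an unadjusted edgeR p under 0.05, against 2.63% of all genes in that direction. The 4, named after their values were seen, were Nfkb2 (0.76 ± 0.26, log2, SE), Nfkbib (0.59 ± 0.15), Relb (0.49 ± 0.20) and Bcl3 (0.46 ± 0.20), all with an edgeR adjusted p of 0.832, so 0 passed. The summed FPKM of the list with Rel was 260 to 263 in LPS+bLF lungs, 190 to 245 in LPS lungs and 229 to 248 in bLF lungs. It was 242, 166 and 222 in control replicates 1, 2 and 3. Control replicate 2 was the lowest control lung for each of the 4 genes, and no value without it is given here.

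The ratio of Nfkbia to Tnfaip3 in FPKM, 2 brakes on the same pathway, was 61.2, 62.4 and 84.9 in LPS+bLF lungs, 137, 50.7 and 44.0 in LPS lungs, 122, 76.6 and 77.1 in bLF lungs, and 78.7, 45.0 and 69.8 in control lungs. LPS replicates 2 and 3 were below all LPS+bLF and bLF lungs, and LPS replicate 1 was above all 11 other lungs. The ratio of Tlr2 to Tlr4 was 5.04, 5.93 and 5.89 in LPS+bLF lungs, 3.55, 4.62 and 10.5 in LPS lungs, 3.46, 4.55 and 3.02 in bLF lungs, and 4.61, 4.09 and 4.10 in control lungs, and every LPS+bLF lung was above every bLF and control lung.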
